A study of Homo sapiens with 2 samples.

Results

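ABC transporters are membrane proteins that bind and hydrolyze ATP to move drugs, conjugates, lipids, peptides or ions across a membrane, and a few relatives of the family lack a membrane domain and act on ribosomes instead. In epithelial and tumor cells the C class (multidrug resistance-associated proteins, MRPs) and the G-class protein ABCG2 export drugs and drug conjugates, the A class moves sterols and phospholipids, and TAP1 with TAP2 feeds peptides to MHC class I. Members were taken from the array annotation by their gene symbol: every probe set paired with a single gene named ABC, a class letter from A to G and a number, together with CFTR, TAP1 and TAP2. This gave 107 probe sets of 45 genes, out of 41097 probe sets of 19775 genes with a single gene in the annotation and 54675 probe sets in all.

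The cells were H322c, an established NSCLC cell line in which the EGFR inhibitor gefitinib was tested. One culture was given 1 μM gefitinib for 4 days and the other 0.1% DMSO, the vehicle, for 4 days, and both were grown in RPMI with fetal bovine serum. RNA of each was hybridized to an Affymetrix U133 Plus 2.0 array, with 1 array per condition. No test is therefore possible, and each difference describes these 2 arrays and not a population of cultures.

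Values are MAS5 signal intensities on a linear scale. A probe set was counted as measured when its signal was 100 or more on at least 1 array, and lower signals were raised to this floor before gefitinib was divided by DMSO and the log2 taken. Folds with the weaker signal under the floor are lower bounds, written "at least". The brightest measured probe set, by the mean of its log2 signals on the arrays, stood for its gene, and 2-fold was used to count differences. Among probe sets sharing a gene and bright enough on both arrays, log2 ratios had an SD of 0.54 (4610 genes), and no spread between cultures can be given. Signals of different probe sets are not set against each other here, since probe sets differ in brightness for reasons unrelated to transcript level. In bulk RNA, fewer cells with a transcript and less of it per cell cannot be told apart.

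The arrays held the transcripts of an epithelial cell line. EPCAM, CDH1, KRT8, KRT18 and KRT19 had signals between 15823.9 and 30962.3 with gefitinib and between 14038.1 and 38923.3 with DMSO. None of the 4 annotated leukocyte markers reached the floor on either array. Of the 6 fibroblast markers only COL1A1 did, with 950.2 with gefitinib and 531.4 with DMSO. Among 4 endothelial markers, VWF had 496.0 with gefitinib and 30.0 with DMSO and PECAM1 had 78.0 with gefitinib and 128.4 with DMSO, while CDH5 and KDR were below the floor on both. Of 2 annotated red cell markers, HBB had 91.7 with gefitinib and 110.7 with DMSO. Whether VWF bears on the ABC values was not tested. Below the floor were 60.4% of all probe sets on the gefitinib array and 61.6% on the DMSO array.

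Of the 45 ABC genes, 24 were measured, through 42 probe sets. At the brightest probe set 6 genes were at least 2-fold higher on the gefitinib array: ABCC5, ABCA1, ABCD4, ABCA5, ABCC10 and ABCC4. The 2 genes that were at least 2-fold lower were ABCC2 and ABCE1. Another 12 genes were within 2-fold without use of the floor. For the remaining 4 (ABCB9, ABCA3, ABCA13 and ABCG1) the bound was under 2-fold, which does not say whether they passed it. ABCB9 also had a probe set that is not a bound, 1.34-fold higher. Higher genes were thus 25.0% of the measured members, against 13.3% of all 11223 measured genes, and lower genes were 8.33% of the members, against 6.2% of all measured genes. In either direction 8 members passed 2-fold (33.3%), against 19.5% of all measured genes. Counted by probe set, 10 of 42 were at least 2-fold higher (23.8%, against 12.1% of all measured probe sets) and 4 at least 2-fold lower (9.52%, against 7.26%). The median log2 ratio was 0.63 over the 24 members and 0.12 over all measured genes. It was 0.61 over the 19 members whose ratio is not a bound and 0.09 over the 10190 genes of that kind. Of these 19 members, 5 were at least 2-fold higher (26.3%, against 12.2% of such genes in all) and 2 at least 2-fold lower (10.5%, against 6.24%). Their ratio was above 0 for 15 (78.9%), against 55.5% in all. For the other 5 members the brightest probe set is a bound that reached the floor with gefitinib only, so the filter sets the sign of that ratio. These shares describe a family of few genes on these arrays and were not tested.

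How many members passed 2-fold depended on the scaling of the arrays. With centring on control probe sets, 9 members were higher and 1 was lower, and with scaling to GAPDH 9 were higher and 0 lower, against 5 higher and 2 lower with scaling to the bacterial spike-in transcripts. Of all genes past 2-fold, 68.2% were higher on the gefitinib array as deposited. That share was 50.5% with spike-in scaling, 57.4% with lowess correction, 78.3% with control probe sets and 83.1% with GAPDH. The median of all measured genes shifted with the scaling, to -0.07 with spike-ins, 0.25 with control probe sets and 0.33 with GAPDH. Relative to that median, the median of the ABC genes was 0.52 higher as deposited. Scaling by a constant factor can hardly move this difference, and it was 0.48 with quantile normalization, 0.47 with lowess correction and 0.46 with the mean over probe sets.

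**Figure D1:**
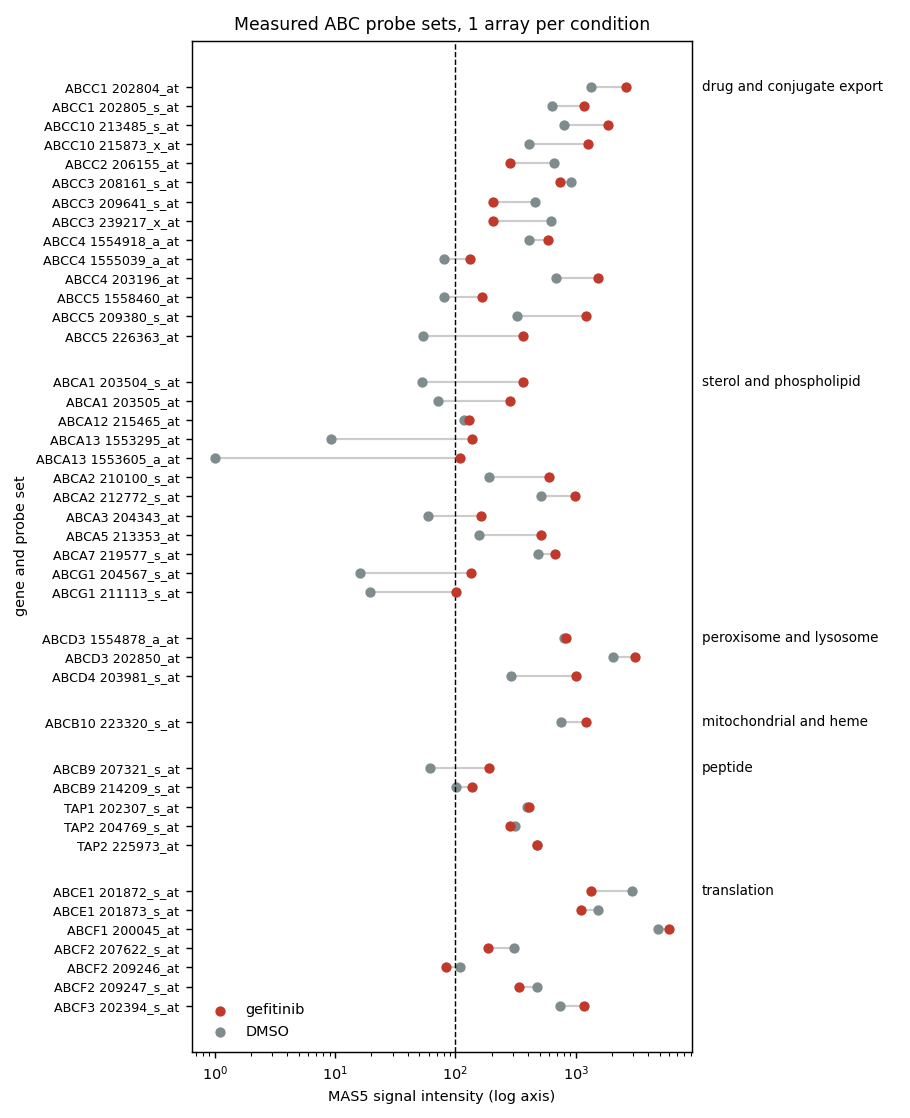
MAS5 signal intensity (horizontal log axis) of the 42 measured ABC probe sets on the gefitinib array (red) and the DMSO array (grey), 1 array per condition, grouped by role. The dashed line is the floor of 100; 11 probe sets have only the red point at or beyond it and 1, of ABCF2, has only the grey point there.

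The drug and conjugate exporters held members at both ends of the family. Of 12 such genes 6 were measured, all from the C class, and 3 of them were at least 2-fold higher, 1 was at least 2-fold lower and 2 were within 2-fold.

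ABCC5 (MRP5) is an exporter of cyclic nucleotides and nucleotide analogs. As deposited it had the highest ratio of the family, followed by ABCA1, whose ratio is a lower bound. ABCA1 came first with quantile normalization, a floor of 50 or 50 added to the signal, and ABCD4 with the mean over probe sets. The order at the top thus depends on the setting. The ABCC5 signal at 209380_s_at was 1208.7 with gefitinib and 323.0 with DMSO, 3.74-fold higher (log2 ratio 1.90). This ratio was at position 310 of the 11223 measured genes when ordered from the highest. Scalings here and below are the deposited one, quantile normalization, lowess correction, control probe sets, GAPDH and spike-ins. At 226363_at the signal was 366.8 with gefitinib and 54.1 with DMSO, at least 3.67-fold higher. At 1558460_at it was 166.5 with gefitinib and 80.7 with DMSO, at least 1.67-fold higher. All measured probe sets of ABCC5 were brighter on the gefitinib array, but 226363_at and 1558460_at reached the floor with gefitinib only. The floor fixes their sign, so the direction rests on 209380_s_at. Over the 6 scalings the fold at 209380_s_at ran from 3.27 to 4.37.

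ABCC10 (MRP7), which exports taxanes and other lipophilic drugs, was higher at both of its probe sets. The signal of 213485_s_at was 1853.0 with gefitinib and 796.9 with DMSO, 2.33-fold higher (log2 ratio 1.22). That of 215873_x_at was 1275.2 with gefitinib and 406.8 with DMSO, 3.13-fold higher. The suffix _x_at marks a probe set whose probes may also bind other transcripts.

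ABCC4 (MRP4) exports cyclic nucleotides and prostanoids. Its signal at 203196_at was 1521.3 with gefitinib and 687.6 with DMSO, 2.21-fold higher (log2 ratio 1.15). At 1554918_a_at it was 587.0 with gefitinib and 405.5 with DMSO, 1.45-fold higher, and at 1555039_a_at it was 132.6 with gefitinib and 80.2 with DMSO, at least 1.33-fold higher. The direction was shared by these probe sets, though 1555039_a_at reached the floor with gefitinib only, which fixes its sign. The size was not shared: the mean log2 ratio over the measured probe sets was 0.70. With spike-in scaling the brightest stood at 0.96, under 2-fold. A further probe set, 243928_s_at, reached the floor on neither array.

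ABCC1 (MRP1), the main exporter of glutathione conjugates in many tissues, lay just under the limit. At 202804_at the signal was 2595.5 with gefitinib and 1328.2 with DMSO, 1.95-fold higher (log2 ratio 0.97), and at 202805_s_at it was 1176.3 with gefitinib and 632.8 with DMSO, 1.86-fold higher. Its probe sets differed from each other by less than the SD between probe sets. ABCC1 passed 2-fold with centring on control probe sets and with GAPDH scaling, at up to 2.28-fold.

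ABCC2 (MRP2), an apical exporter of glucuronide and glutathione conjugates, was the member with the lowest ratio. Its only probe set, 206155_at, had a signal of 286.1 with gefitinib and 663.3 with DMSO, 2.32-fold lower (log2 ratio -1.21). It stood at position 449 of the 11223 measured genes counted from the lowest ratio. With scaling to GAPDH its log2 ratio was -0.99, just inside 2-fold.

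ABCC3 (MRP3), a basolateral exporter of glucuronides and bile salts, was lower at all 3 measured probe sets, by different amounts. The brightest, 208161_s_at, had 737.1 with gefitinib and 922.0 with DMSO, 1.25-fold lower (log2 ratio -0.32). At 209641_s_at the signal was 205.6 with gefitinib and 461.5 with DMSO, 2.24-fold lower, and at 239217_x_at it was 204.1 with gefitinib and 625.1 with DMSO, 3.06-fold lower. ABCC3 thus counts as within 2-fold by its brightest probe set and as lower by the mean over its probe sets, a log2 ratio of -1.03. That mean includes 239217_x_at (log2 ratio -1.61), whose suffix marks probes that may also bind other transcripts.

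The other drug exporters were not measured. ABCB1 (P-glycoprotein) and ABCG2 (BCRP), both known to transport gefitinib, stayed below the floor: the highest of the 2 ABCB1 signals was 25.2 with gefitinib and 3.8 with DMSO, and the single ABCG2 probe set had 24.9 with gefitinib and 18.3 with DMSO. ABCB5, ABCC11, ABCC12 and the pseudogene ABCC13 had no signal above 34.9 with gefitinib (ABCB5) or 49.6 with DMSO (ABCC11). Signals under the floor have no order here, and no fold was taken from them.

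**Figure D2:**
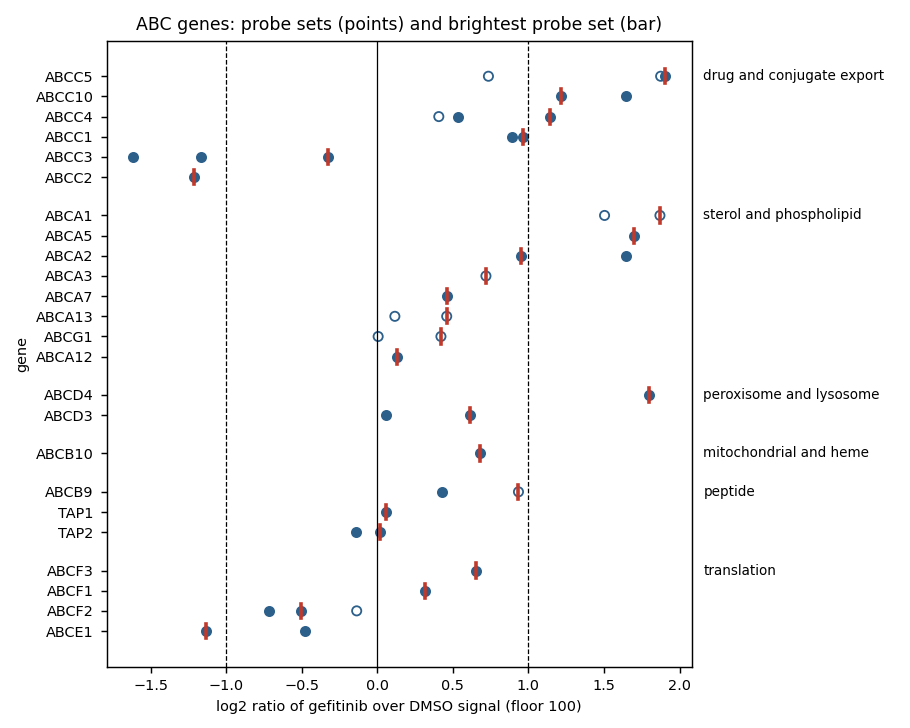
Horizontal axis, log2 of gefitinib signal over DMSO signal; vertical axis, the 24 measured ABC genes by role, with 1 point for each measured probe set and 1 array for each condition. Open points have a signal under the floor of 100 and so show a bound, a red bar stands at each gene's brightest probe set, and 2-fold is dashed; the bars run from -1.21 for ABCC2 to 1.90 for ABCC5.

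Of 13 sterol and phospholipid transporter genes 8 were measured, 2 were at least 2-fold higher, 3 were within 2-fold and 3 had a bound under 2-fold. ABCA1, ABCA3, ABCA13 and ABCG1 reached the floor with gefitinib only, which fixes the sign of their ratio. The 4 genes whose ratio could take either sign, ABCA2, ABCA5, ABCA7 and ABCA12, had log2 ratios from 0.13 to 1.70. For ABCA12 the sign turned with spike-in scaling, to -0.06, and with quantile normalization, also to -0.06.

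ABCA1 hands cholesterol and phospholipid to apolipoprotein A-I and is a known target of the liver X receptors (LXRs), nuclear receptors for oxysterols. Its signal at 203504_s_at was 365.6 with gefitinib and 53.1 with DMSO, at least 3.66-fold higher, and at 203505_at it was 283.6 with gefitinib and 72.1 with DMSO, at least 2.84-fold higher. Both probe sets were at or above the floor with gefitinib only, so each fold is a lower bound. The other 2 ABCA1 probe sets reached it on neither array. ABCG1, which also exports cholesterol and is also an LXR target, had 133.9 with gefitinib and 16.1 with DMSO at 204567_s_at, at least 1.34-fold higher. At 211113_s_at it had 100.4 with gefitinib and 19.5 with DMSO. With a floor of 50 the bound of ABCG1 was 1.42 on the log2 scale, past 2-fold.

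ABCA5, an endolysosomal lipid transporter, had a signal of 514.2 with gefitinib and 158.1 with DMSO at 213353_at, 3.25-fold higher (log2 ratio 1.70). Its second probe set was below the floor on both arrays. ABCA5 lies on chromosome 17 beside ABCA6, ABCA8 and ABCA9, related genes of the same cluster. These neighbors were below the floor on both arrays, with no signal above 16.0 with gefitinib or 17.5 with DMSO.

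ABCA2, a lipid transporter of late endosomes and lysosomes, was higher at both measured probe sets. At 212772_s_at its signal was 986.8 with gefitinib and 509.8 with DMSO, 1.94-fold higher (log2 ratio 0.95), and at 210100_s_at it was 598.8 with gefitinib and 191.5 with DMSO, 3.13-fold higher. It counted as within 2-fold by the brightest probe set and as higher by the mean over both, a log2 ratio of 1.30.

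ABCA3, which loads phospholipid into the lamellar bodies of alveolar type II cells, had 164.6 with gefitinib and 59.2 with DMSO at its only probe set, at least 1.65-fold higher. ABCA13, a very large A-class protein, had 137.5 with gefitinib and 9.3 with DMSO at 1553295_at and 108.4 with gefitinib and 1.0 with DMSO at 1553605_a_at. These signals with gefitinib were little over the floor, so the bound of ABCA13 was at least 1.38-fold. With a floor of 50, ABCA3 lay above the floor on both arrays with a log2 ratio of 1.48, and the bound of ABCA13 was 1.46 on the log2 scale. ABCA7, a phospholipid exporter close to ABCA1 in sequence, had 674.1 with gefitinib and 488.7 with DMSO, 1.38-fold higher, and ABCA12, the lipid transporter of epidermal lamellar granules, had 128.7 with gefitinib and 117.4 with DMSO, 1.10-fold higher.

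ABC probe sets that were at or above the floor on a single array mostly reached it with gefitinib. Of the 42 measured ABC probe sets, 11 (26.2%) reached the floor with gefitinib only, against 8.29% of all 20172 measured probe sets. The reverse, at or above the floor with DMSO only, held for 1 ABC probe set (2.38%), 209246_at of ABCF2, against 5.24% of all. The 11 belonged to ABCA1, ABCA3, ABCA13, ABCB9, ABCC4, ABCC5 and ABCG1. Their signals with gefitinib ran from 100.4 to 366.8, and several were little over the floor, so the count depends on the floor and the scaling. Probe sets of a gene share their transcript and are not independent of each other.

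ABCD4, a lysosomal protein needed to release cobalamin (vitamin B12) into the cytosol, had a signal of 1000.7 with gefitinib and 288.4 with DMSO at 203981_s_at, 3.47-fold higher (log2 ratio 1.79). Over the 6 scalings its fold ran from 3.03 to 4.05. Its second probe set, 203982_s_at, reached the floor on neither array, so the value rests on 203981_s_at. ABCD3 (PMP70), a peroxisomal transporter of fatty acids, was within 2-fold. It had 3118.8 with gefitinib and 2039.2 with DMSO at 202850_at, 1.53-fold higher, and 837.2 with gefitinib and 805.2 with DMSO at 1554878_a_at. Its relative ABCD2 was below the floor.

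Of the mitochondrial and heme-linked transporters, ABCB10, a protein of the inner mitochondrial membrane with a role in erythroid heme synthesis, had 1209.1 with gefitinib and 754.8 with DMSO, 1.60-fold higher (log2 ratio 0.68). ABCB6 had no signal above 95.1 with gefitinib or 58.3 with DMSO, and ABCB8 none above 71.0 with gefitinib or 78.9 with DMSO.

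TAP1 and TAP2 were nearly level on the arrays. TAP1, which pairs with TAP2 to bring cytosolic peptides into the endoplasmic reticulum, had a signal of 412.5 with gefitinib and 395.8 with DMSO (log2 ratio 0.06). TAP2 had 478.2 with gefitinib and 472.2 with DMSO at 225973_at (log2 ratio 0.02) and 282.6 with gefitinib and 311.3 with DMSO at 204769_s_at (log2 ratio -0.14). The sign of both genes depended on the scaling: over the 6 scalings TAP1 ran from -0.14 to 0.28 and TAP2 from -0.18 to 0.24. ABCB9, a lysosomal peptide transporter related to TAP, had 191.1 with gefitinib and 61.0 with DMSO at 207321_s_at, at least 1.91-fold higher. Its other measured probe set, 214209_s_at, had 136.3 with gefitinib and 101.5 with DMSO, 1.34-fold higher. With a floor of 50 this probe set stood for ABCB9, at a log2 ratio of 0.43.

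The members without a membrane domain differed among themselves. ABCE1, which splits ribosomes after termination so that their subunits can be used again, had 1340.2 with gefitinib and 2939.4 with DMSO at 201872_s_at, 2.19-fold lower (log2 ratio -1.13). At 201873_s_at it had 1096.2 with gefitinib and 1525.6 with DMSO, 1.39-fold lower (log2 ratio -0.48). The mean over both probe sets, a log2 ratio of -0.80, was inside 2-fold, as was the brightest with centring on control probe sets and with GAPDH scaling. ABCF2 was lower at its 3 measured probe sets, with 339.0 with gefitinib and 479.9 with DMSO at the brightest, 1.42-fold lower (log2 ratio -0.50). Among these, 209246_at reached the floor with DMSO only, which fixes its sign. ABCF1, which works with the initiation factor eIF2, had 5948.6 with gefitinib and 4787.8 with DMSO, 1.24-fold higher, and ABCF3 had 1168.6 with gefitinib and 742.2 with DMSO, 1.57-fold higher.

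No chloride channel or potassium channel regulator of the family was measured. The 6 CFTR probe sets, for the chloride and bicarbonate channel of airway epithelium, had no signal above 7.9 with gefitinib or 13.4 with DMSO. ABCC8 (SUR1) and ABCC9 (SUR2), the regulators of K-ATP channels, had none above 21.2 with gefitinib or 34.8 with DMSO. The bile and canalicular lipid transporters ABCB4, ABCB11, ABCG5 and ABCG8, the sterol transporter ABCG4 and the retinoid transporter ABCA4 were also below the floor on both arrays. With these and the genes named above, 21 of the 45 members were not measured.

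Of the 24 measured genes, 14 had more than 1 measured probe set and 10 rest on a single one. With bounds left out, since the floor fixes their sign, 9 genes had several probe sets, and in 8 of them (88.9%) these had the same sign, against 61.2% of the 4610 such genes in all. TAP2 was the exception as deposited. The ratios of TAP2 and that of ABCD3 at 1554878_a_at (log2 ratio 0.06) lay close enough to 0 for their signs to depend on the scaling.

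**Figure D3:**
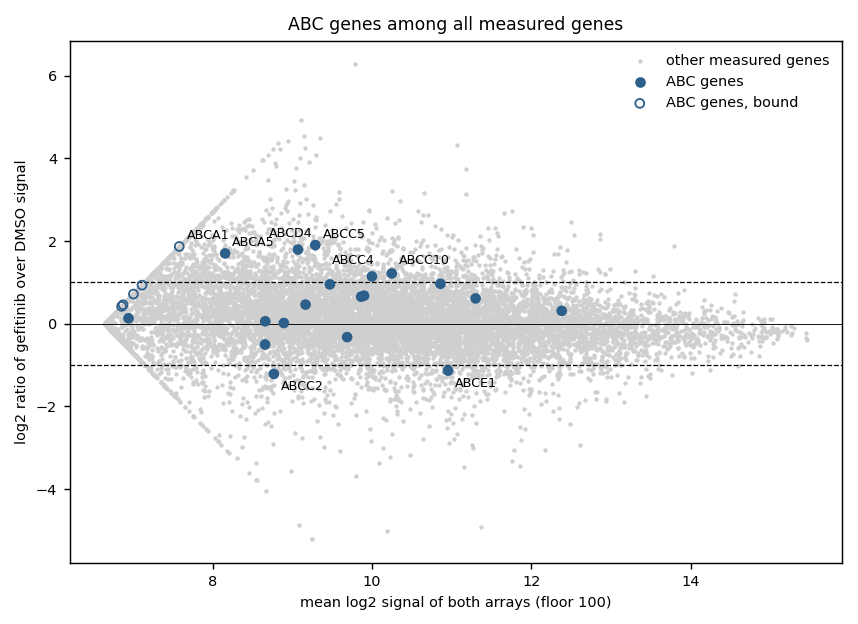
Vertical axis, log2 of gefitinib signal over DMSO signal; horizontal axis, mean log2 signal of the arrays (floor of 100); each of the 11223 measured genes is a point. Blue circles are the 24 ABC genes, open where the ratio is a bound, and dashed lines mark 2-fold; 6 ABC genes lie above the upper line and 2 below the lower line.

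Promoter windows of RefSeq (GRCh38.p14), 250 bases before to 50 bases after an annotated start, were matched to 21 of the 24 measured members (27 windows) and searched on both strands for short motifs. The sequences below are those of higher members with a match upstream of the start, shown so that the letters upstream of these genes can be read. They are written 5′ to 3′ on the strand of the gene, with the match in capitals, and no matches to different motifs overlapped in these windows.
ABCA1, chr9:104928165-104928269, minus strand: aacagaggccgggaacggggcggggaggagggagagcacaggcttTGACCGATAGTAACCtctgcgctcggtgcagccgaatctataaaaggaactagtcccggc
ABCC4, chr13:95301547-95301645, minus strand: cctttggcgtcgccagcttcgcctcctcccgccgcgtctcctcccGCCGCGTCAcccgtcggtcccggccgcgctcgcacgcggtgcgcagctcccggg
ABCC10, chr6:43427353-43427451, plus strand: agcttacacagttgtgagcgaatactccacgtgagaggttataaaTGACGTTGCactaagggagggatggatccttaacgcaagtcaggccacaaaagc
ABCD4, chr14:74303049-74303147, minus strand: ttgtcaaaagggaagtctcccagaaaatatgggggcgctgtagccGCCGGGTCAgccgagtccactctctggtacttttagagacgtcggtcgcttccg
ABCC5, chr3:184017983-184018081, minus strand: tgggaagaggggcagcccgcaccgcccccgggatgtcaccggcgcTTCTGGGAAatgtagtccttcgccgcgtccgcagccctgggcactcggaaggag

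In the ABCA1 stretch the capitals match, on the reverse strand, a direct repeat of the form that LXR with RXR is known to bind: GGTNA, any 5 bases, then GGTNA again. The match began at base -69 from the start. This motif was added after the values had been seen. It was held by 0.78% of all genes with a window and 0.626% of all 35116 promoter windows. No other measured member with a window did. In the ABCC4, ABCC10 and ABCD4 stretches the capitals match TGACNNNGC, the core of the antioxidant response element bound by NFE2L2 (NRF2). With ABCA5, whose match lay after the start, 4 of the 6 higher genes held it, against 0 of the 2 lower genes, 2 of the 10 genes within 2-fold (ABCA2 and ABCF1), 2 of the 3 with a bound under 2-fold (ABCA3 and ABCB9) and 16.1% of all genes with a window. In the ABCC5 stretch the capitals match TTCNNNGAA, the form bound by STAT factors. TAP1 also held it, as did 9.38% of all genes with a window. The AP-1 motif TGANTCA was found in ABCA5 alone among the members, after its start, and in 9.37% of all genes with a window. A match describes letters in these windows and is not evidence of binding.

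Of 16 listed transcription factors known to act on ABC genes 14 were measured, and 2 were at least 2-fold higher, 0 were lower and 12 were within 2-fold, with a median log2 ratio of 0.34. A share of 13.3% of all measured genes was higher, so this count was near the background. NR1H3 (LXRα) had 709.6 with gefitinib and 850.9 with DMSO (log2 ratio -0.26), and NFE2L2 had 6722.2 with gefitinib and 5536.8 with DMSO at 201146_at (log2 ratio 0.28). Its other measured probe set had 48.3 with gefitinib and 136.0 with DMSO. PPARA, a fatty acid receptor, had 368.8 with gefitinib and 18.9 with DMSO at 226978_at, at least 3.69-fold higher, and was at least 2-fold higher also at 223437_at and 223438_s_at, while 1560981_a_at had 60.2 with gefitinib and 126.3 with DMSO. RORA had 373.6 with gefitinib and 64.7 with DMSO at 226682_at, at least 3.74-fold higher, but its other measured probe sets had log2 ratios of 0.19 and -0.40. Next came AHR, the xenobiotic receptor, with a log2 ratio of 0.58, and PPARG, a nuclear receptor of fat cells, with 0.55. RXRA, the partner of LXR, had 1066.2 with gefitinib and 1196.0 with DMSO at 202426_s_at (log2 ratio -0.17) and 2026.4 with gefitinib and 486.7 with DMSO at 202449_s_at (log2 ratio 2.06). It counts as within 2-fold because 202426_s_at is brighter by the mean of log2 signals; by the highest signal on either array it would count as higher.

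Genes of sterol and phospholipid traffic other than ABC genes were divided. Of 17 listed 15 were measured, and 1 was at least 2-fold higher, 2 were at least 2-fold lower, 9 were within 2-fold and 3 had a bound under 2-fold. Among all measured genes 13.3% were at least 2-fold higher and 6.2% at least 2-fold lower. LPCAT1, which remodels surfactant phosphatidylcholine, had 6672.3 with gefitinib and 1330.2 with DMSO, 5.02-fold higher. The sterol carrier STARD4 had 2325.8 with gefitinib and 6928.0 with DMSO, 2.98-fold lower, and NPC1, which exports cholesterol from lysosomes, had 1442.1 with gefitinib and 3672.9 with DMSO, 2.55-fold lower. SOAT1, which esterifies cholesterol, was 1.72-fold higher at its brightest probe set, but had log2 ratios of 0.01 and -0.15 at its other measured probe sets. The median of this list was -0.08, below that of all measured genes.

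Of the MHC class I peptide loading genes around TAP, 14 of 19 were measured, 13 of them were within 2-fold and 1, the peptide-trimming protease ERAP1, was 2.10-fold higher at its brightest probe set. Over all measured genes 13.3% were at least 2-fold higher and 6.2% at least 2-fold lower. The log2 ratios of ERAP1 ran from -0.58 to 1.07 over its 3 measured probe sets. IRF1, a transcription factor of this pathway, was 1.82-fold higher, the TAP-binding protein TAPBP 1.80-fold higher and the proteasome activator subunit PSME1 1.69-fold higher. TAPBP was also higher at 1555565_s_at (log2 ratio 0.82), but at 210294_at it had 80.5 with gefitinib and 116.1 with DMSO.

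The list of drug and metabolite carriers, with the vault protein gene MVP, held genes past 2-fold on both sides. Of its 18 genes 10 were measured, and 3 were at least 2-fold higher, 1 was at least 2-fold lower, 5 were within 2-fold and 1 had a bound under 2-fold. The shares over all measured genes were 13.3% higher and 6.2% lower, and the counts of this short list were not tested. SLCO3A1 had 2510.5 with gefitinib and 862.5 with DMSO, 2.91-fold higher, with all 4 of its measured probe sets past 2-fold. SLCO4A1 had 590.3 with gefitinib and 1790.2 with DMSO, 3.03-fold lower. The carnitine carrier SLC22A5 was 3.80-fold higher at 205074_at, with 1004.4 with gefitinib and 264.0 with DMSO, but at 239615_at it had 125.6 with gefitinib and 387.8 with DMSO, a log2 ratio of -1.63. SLC47A2, which exports organic cations, was 2.17-fold higher.

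Of 16 peroxisome and iron-sulfur partners 15 were measured, and 2 were at least 2-fold higher, 1 was at least 2-fold lower and 12 were within 2-fold. These counts were near the shares over all measured genes, 13.3% higher and 6.2% lower. ACSL1, which activates fatty acids, had 4247.1 with gefitinib and 1576.8 with DMSO, 2.69-fold higher. FECH, the last enzyme of heme synthesis, was 2.01-fold higher, with all 3 measured probe sets on that side. For 229696_at, which reached the floor with gefitinib only, the floor fixes the sign. CIAO1 was 2.87-fold lower at its brightest probe set and had log2 ratios of 0.99 and 1.04 at its other measured probe sets. NUBP1 was 1.89-fold lower.

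The translation partners of ABCE1 and the ABCF proteins had a median log2 ratio of -0.41, below that of all measured genes. All 14 were measured, and 0 were at least 2-fold higher, 1 was lower and 13 were within 2-fold. Across all measured genes 13.3% were at least 2-fold higher and 6.2% at least 2-fold lower. EIF2S1, the alpha subunit of eIF2, had 2475.7 with gefitinib and 7804.3 with DMSO at 201144_s_at, 3.15-fold lower, but log2 ratios of 0.00 and 0.04 at its other measured probe sets. MCTS1 was 1.98-fold lower, EIF5B 1.69-fold lower, and the log2 ratio of EIF2AK2 was 0.69. Of 16 channel partners 8 were measured, with 7 inside 2-fold at their brightest probe sets and 1 with a bound under 2-fold. The largest ratios among them were those of GOPC, a Golgi protein that sorts CFTR (log2 ratio 0.86), and EZR, which links CFTR to actin (-0.45). All 4 measured EZR probe sets were lower on the gefitinib array, and 3 of them were past 2-fold, with log2 ratios of -1.07, -1.12 and -1.62. EZR counts as inside 2-fold by the mean of log2 signals, while 208622_s_at, which held the highest single EZR signal, had 5471.2 with gefitinib and 11519.4 with DMSO. NHERF1, a scaffold for CFTR, had a log2 ratio of 0.39 and SLC26A9, a chloride transporter, of -0.25.

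**Figure D4:**
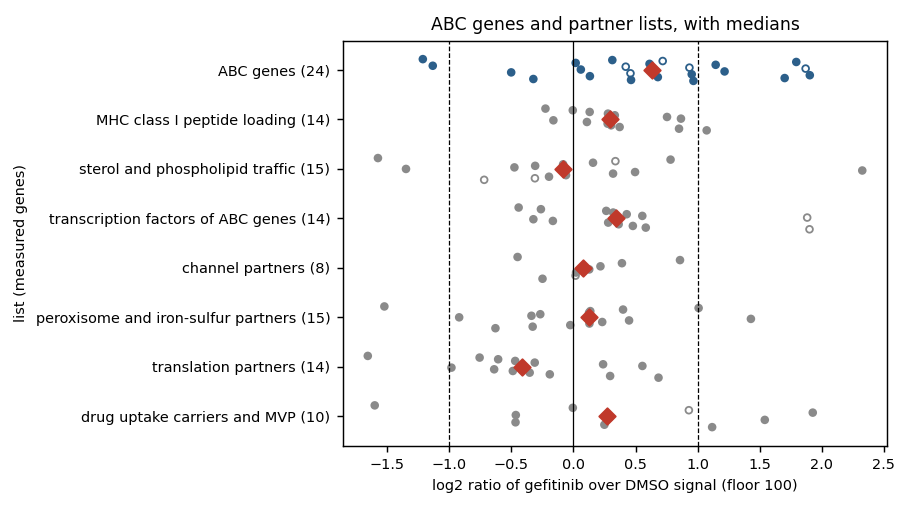
Horizontal axis, log2 of gefitinib signal over DMSO signal, for the 24 measured ABC genes (blue) and the measured genes of 7 partner lists (grey), with their number in parentheses. Each point is a gene (open where it is a bound), red diamonds are medians and dashed lines mark 2-fold; the medians run from -0.41 for translation partners to 0.63 for ABC genes.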

How the data were processed

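Total RNA of H322c cells was measured on Affymetrix U133 Plus 2.0 arrays, 1 per condition. The authors deposited signal intensity values on a linear scale, for which the submitters' processing notes name MAS5; no version of it was given in the sources used. The 2% trimmed mean was 500 on each array, so both were already scaled to a common mean. Of 54675 probe sets the platform annotation paired 41097 with 1 gene, 1801 with several and 11777 with none listed; those with 1 gene were used, and symbols were updated through gene identifiers of GRCh38.p14, which matched all 45 members.

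A floor of 100, a log2 ratio, the brightest probe set for each gene and a 2-fold limit were used. No p-value was computed. Every measured member is named, and of each partner list up to 4 genes with the largest ratio; NR1H3, NFE2L2 and RXRA were added after their values were seen. The members and lists were chosen with earlier results of these data known. Simulated signals of known fold were used to check the counting. Alternatives were quantile normalization, centring on 100 control probe sets, scaling to 3 GAPDH or 18 spike-in control probe sets, lowess correction (span 0.3), floors of 50 and 200, a log2 after adding 50, other probe set rules and a limit of 1.5- or 3-fold. The tools were pandas 2.3.3, numpy 2.4.6 and statsmodels 0.14.6 (lowess) in Python 3.11.15, with matplotlib 3.10.9 for figures.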

Additional observations from a re-analysis of the deposited data

Results flagged for a closer look

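ABCA11P, a pseudogene of the A class, has a symbol outside the rule for members. It had a signal of 281.6 with gefitinib and 145.4 with DMSO at 220159_at, 1.94-fold higher. It was picked out because it is a signal above the DMSO array that no comparison used. Another A-class pseudogene outside the rule, ABCA17P, went the other way, with 86.7 with gefitinib and 140.9 with DMSO at 231164_at.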

How the results depend on the processing

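With 1 array per condition the precision is limited by their number, and no replicate could be left out. No paired analysis was possible because each condition has 1 array. The count of ABC genes past the limit on the higher side was 6 as reported, between 5 and 9 under the other scalings, floors and probe set rules, 13 with a limit of 1.5-fold and 4 with 3-fold. Of all measured genes, 26.4% were past 1.5-fold and 4.78% past 3-fold on that side. The count on the lower side was 2 as reported, 1 with centring on control probe sets (ABCC2) and 0 with scaling to GAPDH or with a limit of 3-fold. At 3-fold 2.05% of all measured genes were lower. The median log2 ratio of the measured ABC genes ran from 0.44 with spike-in scaling to 0.84 with GAPDH scaling. ABCA5, ABCC5, ABCC10 and ABCD4 passed 2-fold under all scalings, floors and probe set rules tried. ABCA1 did too except with a floor of 200, where its bound was 0.87 on the log2 scale. None of the 8 members past 2-fold changed sign under these alternatives, but most alternatives could not have turned a ratio of that size. A floor or an added constant cannot reverse a sign, and the constant factors on the gefitinib signal ran only from 0.88 to 1.17. Of the values of single members under the alternatives, 251 moved by less than the SD between probe sets (0.54) and 8 by more. The 8 were in ABCA1, ABCA3, ABCA13, ABCB9, ABCC3 and ABCG1, with other floors, an added constant or the mean over probe sets. These counts do not measure stability, because many alternatives could not move a value that far. The constant factors are too small for it. Taking the highest signal on either array, or leaving out _x_at probe sets, changed the value of no member.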
